A study of Rattus norvegicus with 14 samples.

Results

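The heat shock proteins and the chaperones of the endoplasmic reticulum (ER) were examined in the rat dentate gyrus after a session of spatial learning. The set was taken by gene symbol: every probe set with a single platform symbol beginning with Hspa, Hsp90, Hspb, Hspd, Hspe, Hsph, Dnaja, Dnajb, Pdia or Cct and a digit, together with Canx, Calr and P4hb. This gave 63 of the 15866 probe sets other than controls, for 50 of the 10411 genes read by a probe set of their own. By place of action they are 23 genes of the cytosol, 7 subunits of the chaperonin CCT, 4 mitochondrial genes, 14 ER genes, and 2 genes brought in by the spelling of their symbols, the HSP70-binding cofactor Hspbp1 and Hspbap1, named as a partner of the small heat shock protein Hspb1. The rule used no measured value.

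Chaperones bind unfolded or newly made proteins and help them reach their native shape. HSP70 proteins work in cycles of ATP hydrolysis started by J-domain proteins (the Dnaja and Dnajb genes), HSP90 proteins take over partly folded clients, and CCT is a barrel-shaped complex that folds actin and tubulin. In the cytosol, heat shock factor 1 switches these genes on when unfolded proteins accumulate, through heat shock elements in their promoters. In the ER, the unfolded protein response does so through the factors ATF6 and XBP1, which act on ER stress response elements. In neurons the ER chaperones serve receptors and channels on their way to the synapse.

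RNA came from microdissected dentate gyrus, the hippocampal region that receives the main input from the entorhinal cortex. The animals were male Long-Evans rats 3 to 4 months old, singly housed, without any named genetic change. All had been trained in a standard water maze 2 to 3 weeks before, and all swam 8 trials, 8 min apart, in a pool new to them. The 7 learning rats ("Learning Activated" in the labels) had spatial cues and a visible platform that stayed in one place; the 7 control rats had a visible platform that changed place and no informative cues. Every rat had a probe trial of 90 s without a platform 1 h after the last trial and was killed directly afterwards. Both groups therefore shared the swimming, the earlier training and the probe trial, and no rat kept in its home cage was among the 14 arrays. One Affymetrix RAE230A array was used per rat, and the labels call the samples biological replicates. All levels below are GCRMA values on a log2 scale, on which a difference of 1 is a doubling, and levels of different probe sets are not comparable with each other.

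Promoter sequences were available for 44 of the 50 genes, as 300 bases around the annotated RefSeq start (250 before it and 50 after it) in the GRCr8 assembly. Some of the genes had an ER stress response element or a heat shock element of 3 units there, searched on both strands, and most had neither. An ER stress response element, CCAAT and CCACG with any 9 bases between them, was found in Calr, Canx, Hsp90b1 and Hspa5, and in 0.0657% of 33469 rat promoters. The related element II, ATTGG and CCACG with any 1 base between them, was found in Dnajb11, and in 0.0508% of all promoters. These windows are shown because they include Canx and Hspa5, which the results below turn on; capitals mark the element, and Hsp90b1 has it on each strand.
Hspa5, + strand, chr3:38452953-38453011: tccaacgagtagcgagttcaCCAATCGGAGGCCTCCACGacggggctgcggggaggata
Canx, - strand, chr10:35158049-35158107: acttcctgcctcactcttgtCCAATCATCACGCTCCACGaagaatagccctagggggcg
Calr, + strand, chr19:40213117-40213173: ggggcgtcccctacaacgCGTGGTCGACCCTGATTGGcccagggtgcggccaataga
Hsp90b1, - strand, chr7:23012327-23012489: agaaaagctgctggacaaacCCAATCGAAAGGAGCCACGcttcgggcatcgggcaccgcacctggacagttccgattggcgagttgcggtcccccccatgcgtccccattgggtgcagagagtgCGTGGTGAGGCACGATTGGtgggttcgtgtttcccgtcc
Dnajb11, - strand, chr11:91672792-91672818: aggcggcgATTGGCCCACGcctggctg

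A heat shock element of 3 units, alternating GAA and TTC with any 2 bases between units, was found in Cct4, Dnaja1, Hspd1, Hspe1 and Hsph1, and in 0.798% of all promoters. The shorter form of 2 units, GAANNTTC or TTCNNGAA, lies inside the longer one and was found in 14 of the 44 genes and in 15.9% of all promoters. The windows of Hspa1a, Dnajb1, Hspb1 and Hsp90ab1 had no 3-unit element, and those of Pdia4 and Dnajb9 had no ER stress response element. Dnajb1 and Hspb1 had the 2-unit form, and Hspa1a and Hsp90ab1 did not. Bases outside the window, and other starts of a gene, were not searched. A window without an element therefore does not show that the gene lacks one. The windows are shown because Cct4 is among the genes of low p, and because Hspd1 and Hspe1 have 1 element between them. They lie head to head, their windows have 211 bases in common on opposite strands, and the same overlapping pair of matches, printed from each side, is at chr9:64084262-64084279. Capitals mark the element.
Hsph1, + strand, chr12:10427312-10427364: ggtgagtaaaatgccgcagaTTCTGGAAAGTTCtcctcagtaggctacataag
Dnaja1, + strand, chr5:60638405-60638433: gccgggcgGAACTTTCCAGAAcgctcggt
Cct4, + strand, chr14:101193074-101193102: gcgtcgctTTCTGGAAGGTTCgtggaggc
Hspd1, - strand, chr9:64084242-64084287: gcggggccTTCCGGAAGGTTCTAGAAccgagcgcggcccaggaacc
Hspe1, + strand, chr9:64084242-64084299: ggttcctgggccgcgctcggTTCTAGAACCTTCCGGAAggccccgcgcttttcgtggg

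These matches describe letters in a window; binding was not measured. The 5 genes with either ER stress response element did not differ in one direction between the groups: 2 averaged higher and 3 lower in learning rats. The median difference was -0.01 and the range ran from -0.17 (Hspa5) to 0.32 (Canx). Of the 5 genes with the longer heat shock element, 3 averaged higher and 2 lower, with a median of 0.11. Gene by gene the values are given below.

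Of the 63 probe sets, 52 (41 genes) had a mean level of at least 4 and were tested. The other 11 had means between 2.25 and 3.46. Through them 9 genes were not tested: Pdia2, Pdia5, Dnajb3, Hspa12b, Hspa1l, Hspb2, Hspb3, Hspb7 and Hspbap1. Hspa8, Hsp90aa1 and Hspa1b, the constitutive HSP70, the inducible HSP90 and a twin gene of Hspa1a, have no probe set of their own symbol alone and are not reported.

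No chaperone probe set passed limma's moderated test at a Benjamini-Hochberg adjusted p of 0.05, and neither did any of the 9387 probe sets tested on the array (0.0%). The smallest adjusted p among the chaperones was 0.168, for Canx. At an unadjusted p below 0.05 there were 9 of 52 probe sets, or 17.3%, against 13.1% of all probe sets tested. They were 5 that were higher in learning rats (9.62%, against 6.43% of all tested) and 4 that were lower (7.69%, against 6.67%). These shares are near the background, and the 2 directions occurred about equally. The 9 differences were small, from 0.12 to 0.32 log2 units in size, or 1.09-fold to 1.25-fold. The groups overlapped in all 52 chaperone probe sets. Over all tested they did not overlap in 0.405%, a share too small for 52 probe sets to show a contrast. In simulated data with 200 changed probe sets among 9387, the same test recovered 18.4% of changes of 0.25 log2 units and 80.1% of changes of 0.5. The simulated probe sets were normally distributed and independent of each other, so these rates need not hold for the real arrays.

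**Figure D1:**
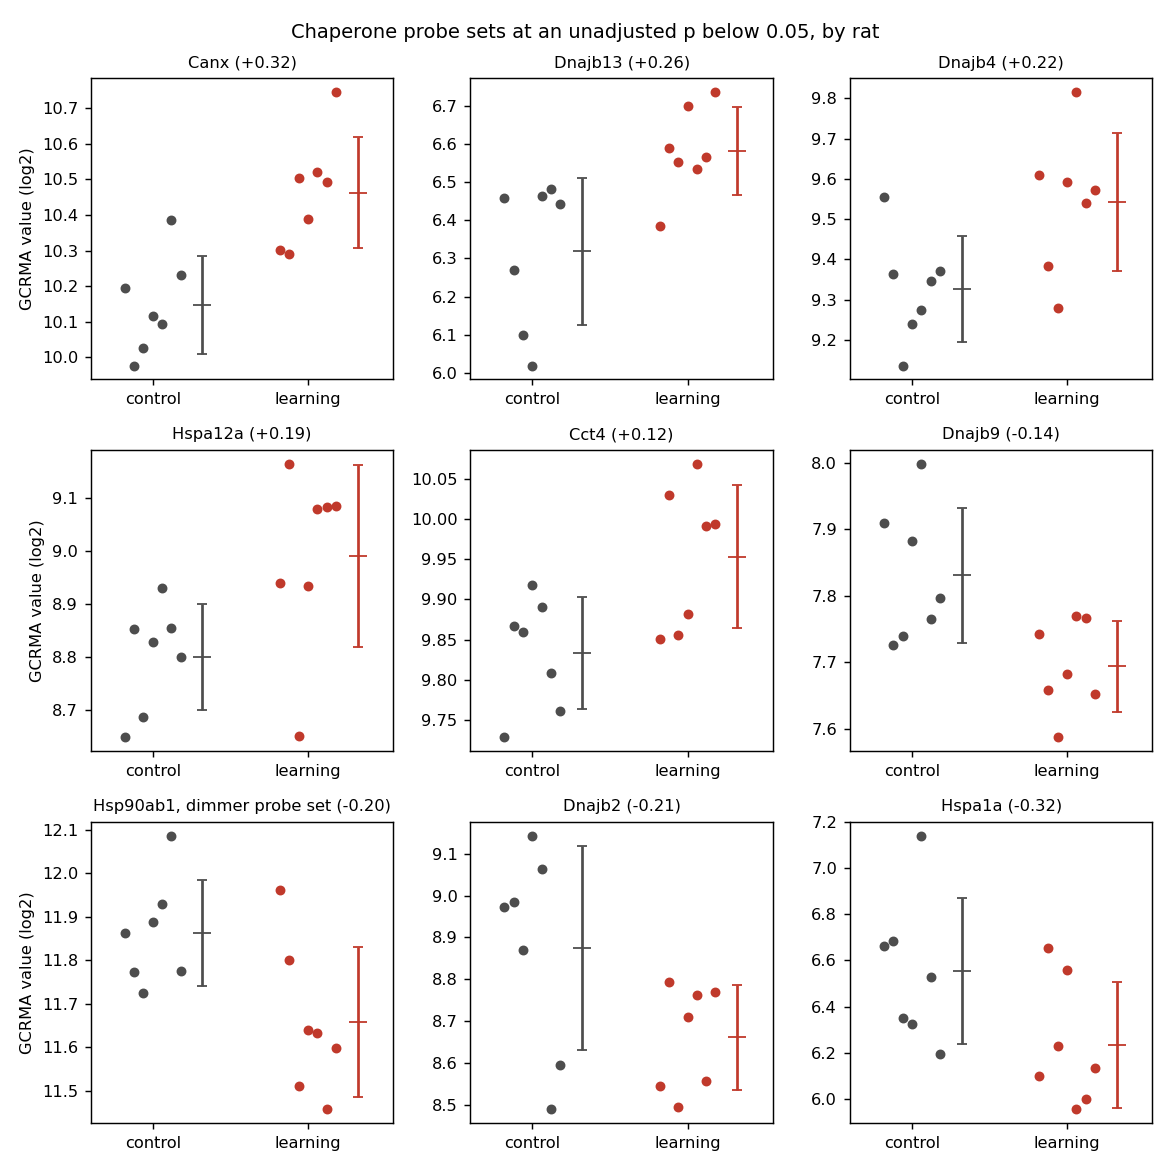
Level of each chaperone probe set with an unadjusted p below 0.05 in each rat (vertical axis, log2 GCRMA value; points are rats, with the group mean and SD; 7 control and 7 learning rats). Canx, Dnajb13, Dnajb4, Hspa12a and Cct4 averaged higher in learning rats, and Dnajb9, Dnajb2, Hspa1a and the dimmer Hsp90ab1 probe set lower, and the groups overlap in every panel.

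The lectin chaperones Canx and Calr hold sugar-bearing proteins in the ER until they are folded. Canx, the membrane-bound calnexin, had levels of 9.98 (lowest), 10.12 (median) and 10.39 (highest) in control rats and 10.29, 10.49 and 10.75 in learning rats. All 7 learning rats lay above the control median, and 5 lay above the highest control. The means were 10.15 ± 0.14 (SD, n = 7) and 10.46 ± 0.16 (SD, n = 7), a difference of 0.32 ± 0.08 (SE) with a 95% confidence interval of 0.15 to 0.48, or 1.25-fold. Its unadjusted p was 0.001 in limma and 0.00233 in a two-sided exact permutation test, and its adjusted p was 0.168, with a range of 0.0825 to 0.352 over the alternative analyses. The difference belonged to 1 of 3 Canx probe sets. The other probe sets differed by 0.04 ± 0.10 (SE) and 0.02 ± 0.08 (SE), and across rats, after each group was centred on its mean, they correlated with the first at r = 0.02 and r = -0.22 (n = 14, given as a description). Calr, the soluble calreticulin, averaged 10.33 ± 0.17 in control and 10.32 ± 0.15 in learning rats (SD, n = 7 each), a difference of -0.01 ± 0.08 (SE).

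Of the HSP70, HSP90 and J-domain proteins of the ER, 1 of 6 tested genes averaged higher in learning rats and 5 lower, and 1 (Dnajb9) had an unadjusted p below 0.05. Dnajb9 (ERdj4) is a J-domain partner of the ER HSP70 and a target of XBP1. Its levels were 7.73, 7.80 and 8.00 (lowest, median and highest) in control rats and 7.59, 7.68 and 7.77 in learning rats. No learning rat exceeded the control median, and 4 lay below the lowest control. The difference was -0.14 ± 0.05 (SE; 95% confidence interval -0.25 to -0.02), with an exact permutation p of 0.0122 and an adjusted p of 0.306 in limma.

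Hspa5, which encodes BiP, the HSP70 of the ER and the usual readout of the unfolded protein response, had levels of 10.95, 11.66 and 11.80 in control rats and 10.92, 11.46 and 11.61 in learning rats. No learning rat exceeded the control median, and 1 rat of each group lay far below the rest: control replicate 7 at 10.95 and learning replicate 7 at 10.92. The difference was -0.17 ± 0.13 (SE; 95% confidence interval -0.45 to 0.11), with an adjusted p of 0.578 in limma. Without those 2 arrays, an alternative chosen after the values were seen, it was -0.19, and limma's p was 0.0169 before adjustment and 0.345 after it (adjusted p of 0.246 to 0.801 over all alternatives). Leaving out 1 array at a time, it ran from -0.27 without control replicate 7 to -0.09 without learning replicate 7. Hsp90b1 (GRP94), the HSP90 of the ER, averaged 11.20 ± 0.15 and 11.27 ± 0.12 (SD, n = 7 each), a difference of 0.07 ± 0.07 (SE), which became -0.0022 without those arrays. Dnajb11 (ERdj3), a J-domain partner of BiP, differed by -0.05 ± 0.07 (SE). Hspa13, a truncated HSP70 relative of microsomes, differed by -0.04, and Dnajb12, which sits in the ER membrane, by -0.0008.

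Protein disulfide isomerases form and shuffle the disulfide bonds of secreted and membrane proteins. Of 4 tested genes 2 averaged higher and 2 lower, none with an unadjusted p below 0.05. Pdia4 (ERp72) varied most, from 7.09 to 8.20 in control rats (median 7.55) and from 7.47 to 8.24 in learning rats (median 8.01), and differed by 0.27 ± 0.17 (SE; adjusted p 0.522 in limma). The Pdia4 difference was 0.17 without control replicate 7 and 0.12 without both replicates 7. Pdia3 (ERp57), the partner of the lectin chaperones, averaged 10.90 ± 0.19 in control and 11.06 ± 0.19 in learning rats (SD, n = 7 each), a difference of 0.16 ± 0.10 (SE), and its dimmer probe set differed by 0.03. P4hb, the founding member of the family, differed by -0.08 ± 0.07 (SE) and Pdia6 by -0.06 ± 0.08 (SE). Over the 12 tested ER genes the median difference was -0.03, beside 0.0018 over all 6697 genes tested on the array.

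**Figure D2:**
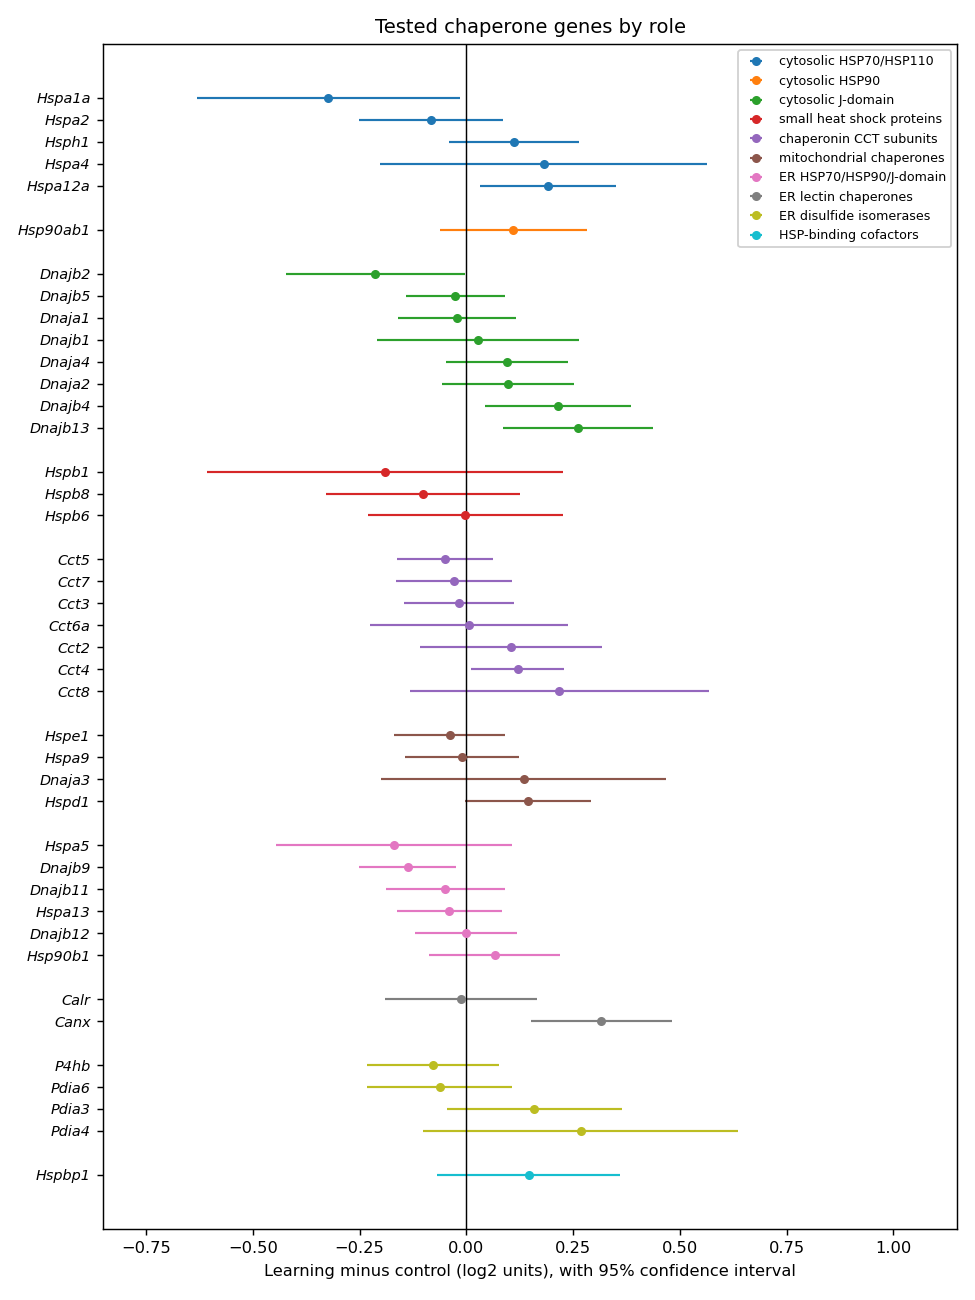
Difference between learning and control rats (horizontal axis, log2 units; bars are 95% confidence intervals, 7 rats per group) for each of the 41 tested chaperone genes, arranged by role, with each gene at its probe set of highest mean. The intervals of most genes cross 0, and genes lie on both sides of 0 in every role except cytosolic HSP90 (1 gene, higher), the cofactors (1 gene, higher) and the small heat shock proteins (3 genes, all lower).

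Among the HSP70 proteins of the cytosol and their relative HSP110, 5 genes were tested, of which 3 averaged higher and 2 lower. Hspa1a, the classic heat-inducible HSP70, had levels of 6.19, 6.53 and 7.14 (lowest, median and highest) in control rats and 5.95, 6.13 and 6.66 in learning rats. In learning rats 4 values lay below the lowest control, and 2 lay above the control median. The difference was -0.32 ± 0.14 (SE; 95% confidence interval -0.63 to -0.02), or 1.25-fold higher in control rats. In limma its p was 0.0406 before adjustment and 0.355 after it. The two-sided exact permutation test gave 0.0629. Hspa12a, a distant and brain-rich HSP70 relative, ran from 8.65 to 8.93 in control rats (median 8.83) and from 8.65 to 9.16 in learning rats (median 9.08). In learning rats 6 of 7 values lay above the highest control, and 1 lay at 8.65, beside the lowest control. Its difference was 0.19 ± 0.07 (SE; adjusted p 0.312 in limma, exact permutation p 0.0268). Hsph1, the HSP110 that reloads HSP70 with ATP, differed by 0.11 ± 0.07 (SE), Hspa4, of the same family as Hsph1, by 0.18 ± 0.18 (SE), and Hspa2, best known from the testis, by -0.08 ± 0.08 (SE).

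Hsp90ab1, the constitutive HSP90, was read by a pair of probe sets that disagreed. The brighter ran from 12.30 to 12.67 in control rats (median 12.51) and from 12.40 to 12.89 in learning rats (median 12.64), a difference of 0.11 ± 0.08 (SE) with an adjusted p of 0.565 in limma. The dimmer ran from 11.72 to 12.09 in control rats (median 11.86) and from 11.46 to 11.96 in learning rats (median 11.63), a difference of -0.20 ± 0.08 (SE) with an adjusted p of 0.302 in limma and an exact permutation p of 0.0274. On the brighter probe set 6 learning rats were above the control median, and on the dimmer 1 was. Their values correlated at r = 0.14 across rats within groups (n = 14, as a description). No direction is therefore given for Hsp90ab1.

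Of the 8 tested J-domain proteins of the cytosol, 5 averaged higher and 3 lower. Dnajb13, known from the radial spokes of motile cilia and sperm tails, had levels of 6.02, 6.44 and 6.48 in control rats and 6.39, 6.57 and 6.74 in learning rats. Every learning rat but 1 lay above the highest control. The difference was 0.26 ± 0.08 (SE; 95% confidence interval 0.09 to 0.44), with an adjusted p of 0.236 in limma and an exact permutation p of 0.00583. Dnajb4, a general HSP40, ran from 9.14 to 9.55 (median 9.35) and from 9.28 to 9.82 (median 9.57), a difference of 0.22 ± 0.08 (SE; adjusted p 0.289 in limma). Dnajb2, a neuronal HSP40 that passes clients to the proteasome, ran from 8.49 to 9.14 (median 8.97) and from 8.50 to 8.79 (median 8.71). No learning rat exceeded its control median, and the difference was -0.21 ± 0.10 (SE; adjusted p 0.374 in limma, exact permutation p 0.0647). Dnajb1, the heat-inducible HSP40 that partners HSP70, differed by 0.03 ± 0.11 (SE) on its brighter probe set and by -0.02 ± 0.13 (SE) on the other. Dnaja1 likewise gave -0.02 ± 0.06 (SE) and 0.05 ± 0.05 (SE). Dnaja2 and Dnaja4 differed by 0.10 and 0.09, and Dnajb5 by -0.03.

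Small heat shock proteins hold unfolded proteins without using ATP. The 3 tested genes all averaged lower in learning rats, with no unadjusted p below 0.05. Hspb1 (HSP27) had levels of 5.15, 6.26 and 6.84 in control rats and 5.67, 6.03 and 6.36 in learning rats, a difference of -0.19 ± 0.20 (SE; adjusted p 0.685 in limma). The lowest control value was again that of replicate 7. Without control and learning replicates 7 the Hspb1 difference was -0.31, and limma's p was 0.033 before adjustment and 0.395 after it (adjusted p of 0.244 to 0.875 over all alternatives). Leaving out 1 array at a time, it ran from -0.36 without control replicate 7 to -0.08 without control replicate 5. Hspb6 differed by -0.0023 and Hspb8, which lies near the filter, by -0.10 on its brighter probe set and 0.0012 on the other. Hspb1 is made by vessels as well as by glia and neurons, and its values correlated with the mean of 8 meningeal markers at r = 0.44 and rho = 0.30 (n = 14, groups centred, permutation p 0.114 and 0.300, adjusted p 0.345 over 18 relations; r = 0.47 without the 2 arrays farthest from the median). With the mean of 4 endothelial markers it correlated at r = 0.38 and rho = 0.33 (permutation p 0.176 and 0.251, adjusted p 0.345; r = 0.05 without 2 arrays, so this relation rests on those arrays). With the meningeal marker mean as a covariate the Hspb1 difference was -0.14 in place of -0.19; an endothelial covariate was not fitted. Over the 17 tested genes of the cytosol the median difference was 0.03.

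The chaperonin CCT was represented by 7 of its subunits, of which 4 averaged higher and 3 lower, with a median difference of 0.0067. Another subunit, Tcp1, falls outside the symbol rule and is counted with the co-chaperones below (0.07 ± 0.09 SE). Cct4 had levels of 9.73, 9.86 and 9.92 in control rats and 9.85, 9.99 and 10.07 in learning rats. In learning rats 4 values lay above the highest control, and the difference was 0.12 ± 0.05 (SE; adjusted p 0.344 in limma, exact permutation p 0.0198). Cct8 differed by 0.22 ± 0.16 (SE), Cct2 by 0.10 ± 0.10 (SE), Cct5 by -0.05 ± 0.05 (SE), Cct7 by -0.03 and Cct3 by -0.02. Cct6a differed by 0.0067 on its brighter probe set and by -0.0062 on its dimmer one, and both were highest among controls in replicate 6. The subunits, which assemble in equal numbers, did not vary together from rat to rat: their median pairwise correlation was -0.0088, beside 0.0025 over all tested genes. Without control replicate 6 the median difference of the subunits was 0.09.

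The mitochondrial chaperones fold proteins imported into the matrix. Hspd1 (HSP60) forms the barrel that Hspe1 (HSP10) closes as a lid, and the genes share the promoter shown above. Hspd1 had levels of 10.07, 10.16 and 10.27 in control rats and 10.09, 10.24 and 10.50 in learning rats. In learning rats 3 values lay above the highest control, and the difference was 0.14 ± 0.07 (SE; 95% confidence interval -0.0033 to 0.29), with an adjusted p of 0.389 in limma and an exact permutation p of 0.0612. Hspe1 had levels of 11.56, 11.66 and 11.86 in control rats and 11.49, 11.70 and 11.78 in learning rats, a difference of -0.04 ± 0.06 (SE). Across rats within groups the pair correlated at r = 0.51 and rho = 0.49 (n = 14; permutation p 0.0617 and 0.0808; adjusted p 0.473 over 820 gene pairs), and at r = 0.53 without the 2 arrays farthest from the median. Hspa9 (mortalin), the HSP70 that pulls proteins in, gave -0.01 ± 0.06 (SE) on its brighter probe set and 0.08 ± 0.09 (SE) on another, and Dnaja3, its J-domain partner, gave 0.13 ± 0.16 (SE). The median difference of the 4 genes was 0.06. Hspbp1, which releases nucleotide from HSP70, differed by 0.15 ± 0.10 (SE).

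**Figure D3:**
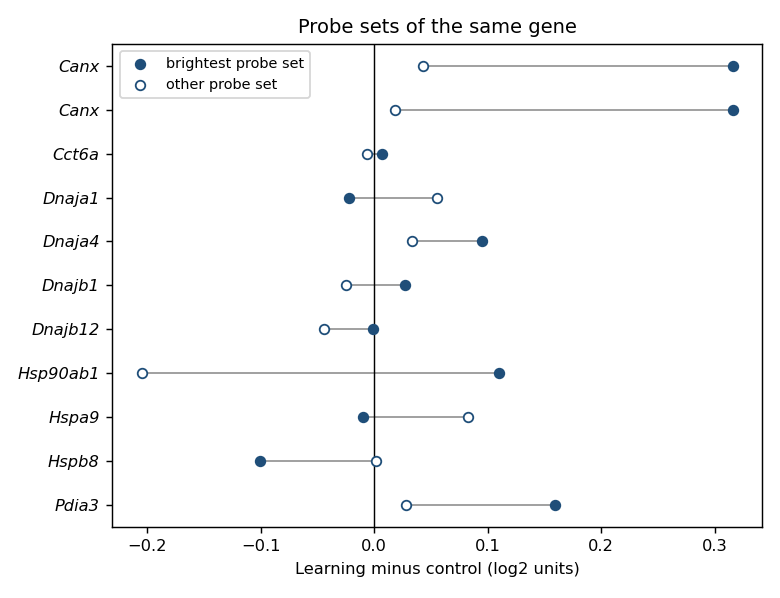
Differences between learning and control rats (horizontal axis, log2 units) on the brightest and the other tested probe sets of the 10 genes with more than 1. The markers of a gene fall on opposite sides of 0 in 6 of 11 pairs, and lie farthest apart for Canx and Hsp90ab1.

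Probe sets of a gene did not always give the same sign, mostly where the differences were small. Of 11 pairs made of a gene's brightest probe set and another, 6 had differences of opposite sign: those of Cct6a, Dnaja1, Dnajb1, Hsp90ab1, Hspa9 and Hspb8. Of these the pair of Hsp90ab1 lay farthest apart (0.11 and -0.20). In each of the others, the difference of the brighter or the dimmer probe set was smaller than its SE. The share of such pairs over all tested genes was not computed. Within groups the pair of Cct6a correlated best across rats (r = 0.71), followed by that of Dnajb12 (r = 0.63). For Hsp90ab1, Hspa9 and Canx, r was at most 0.14.

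The variation from rat to rat was then set beside the differences between the groups, over the 40 tested genes other than Hspbp1. Control replicate 7 was the lowest control for 16 of the 40 genes, among them 9 of the 12 ER genes. Control replicate 5 was the highest for 14 of 40, learning replicate 1 the lowest for 11, and learning replicate 4 the highest for 9. Such counts were not made over all tested genes, so they cannot be called particular to the chaperones. The mean of the 12 ER genes was 8.85 in control replicate 7, against 9.03 to 9.19 in the other 6 control rats and 9.02 to 9.19 in the 7 learning rats. On the whole marker lists, control replicate 7 had a granule cell mean of 9.23, the highest of the controls, a meningeal mean of 5.48 within a control range of 5.09 to 7.93, and an endothelial mean of 6.80 within a control range of 6.57 to 7.11. Their part in its low ER values was not tested.

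**Figure D4:**
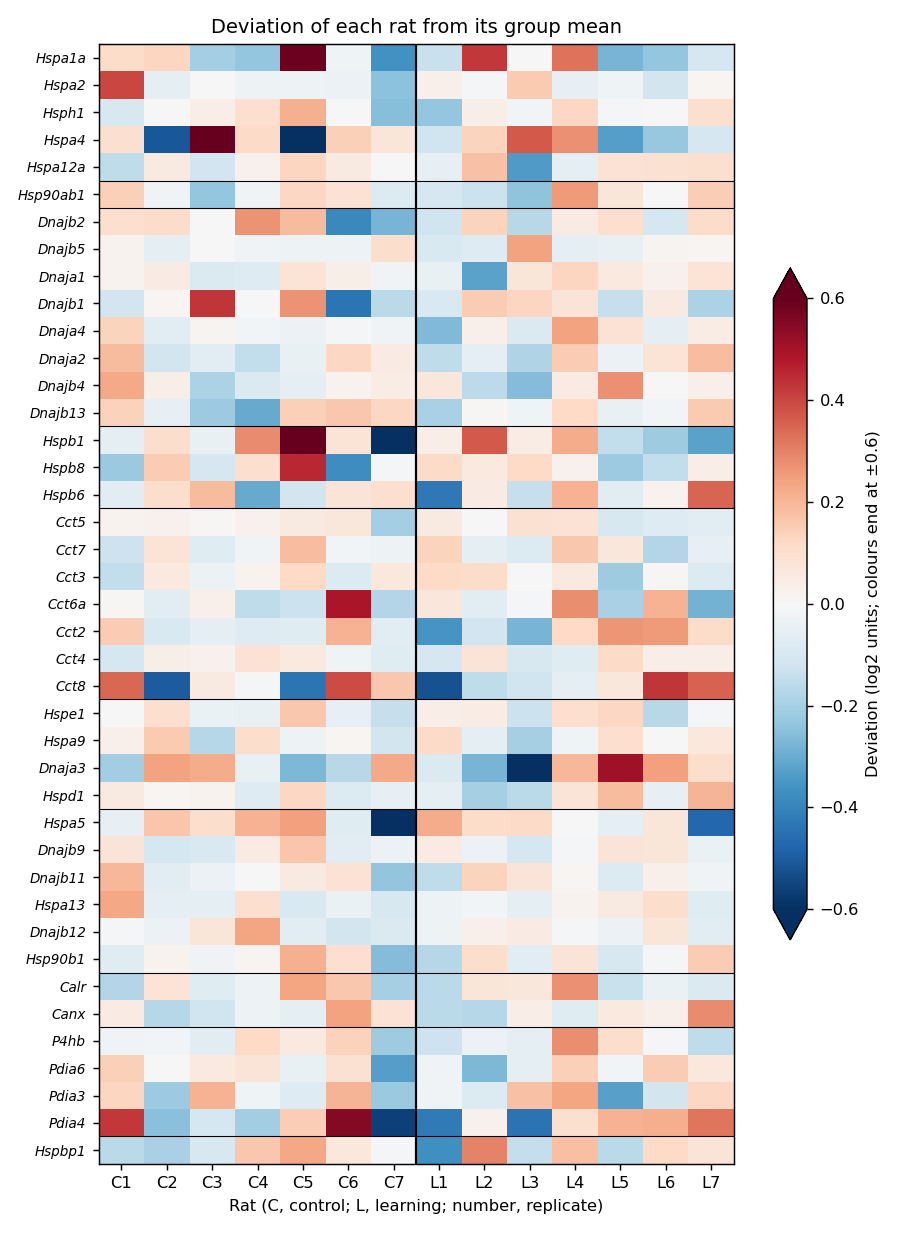
Deviation of each rat from its group mean (colour, log2 units, ending at 0.6 either way) for the tested chaperone genes (rows, by role) in the 7 control and 7 learning rats (columns). Control replicate 7 shows the most low values, mainly in the ER genes, where it was lowest of the controls for 9 of 12.

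How far genes of one compartment varied together differed between compartments. With groups centred, the median pairwise correlation across rats was 0.23 for 12 ER genes and 0.42 for 4 mitochondrial genes. For 17 genes of the cytosol it was 0.10, for 7 CCT subunits -0.0088 and for all tested genes 0.0025. These are descriptions over 14 arrays. Control replicate 7 was then left out, after the values were seen. The medians became 0.11 for the ER genes, 0.44 for the mitochondrial genes, 0.13 for those of the cytosol and 0.0032 for the CCT subunits. Of 18 relations of Hspa5, Hsph1 and Hspb1, none had an adjusted permutation p below 0.05, and 3 had an unadjusted Pearson p below it: Hspa5 with Canx, Hsph1 with Hspb1, and Hsph1 with Hspa1a (r = 0.54, rho = 0.42, p 0.0481 and 0.134, adjusted p 0.289, r = 0.43 without the 2 farthest arrays). Hspa5 and Canx, which both have the ER stress response element, ran in opposite directions: r = -0.68 and rho = -0.74 (n = 14; permutation p 0.00854 and 0.00333; adjusted p 0.078 and 0.0599), r = -0.66 without the 2 arrays farthest from the Hspa5 median, -0.54 within control rats and -0.87 within learning rats. This is the Canx probe set that differed between the groups, and the other Canx probe sets were not compared with Hspa5. Hsph1 and Hspb1 gave r = 0.68 and rho = 0.57 (permutation p 0.00867 and 0.0375; adjusted p 0.078), with r = 0.59 without 2 arrays. That relation came from the control rats, at r = 0.95, and was 0.01 in the learning rats. Hspa5 and Hsp90b1, commonly induced together, gave r = 0.27 and rho = 0.16 (permutation p 0.358 and 0.582; adjusted p 0.460), with 0.82 in control and -0.63 in learning rats and r = 0.12 without replicates 7.

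Over all 820 pairs of the 41 genes, a family computed after the 18 relations were known, 97 pairs (11.8%) had an unadjusted permutation p below 0.05, and 1 had an adjusted p below 0.05. Permutation p-values were not computed for pairs of all tested genes; by size alone, a correlation of at least 0.53 either way, a limit chosen after the values were seen, was found in 12.1% of the chaperone pairs and in 8.79% of the pairs of all 6697 genes. The pair past adjustment was Hsp90b1 and Hsph1, of the ER and of the cytosol: r = 0.89 and rho = 0.83 (n = 14; adjusted p 0.0328 for r and 0.141 for rho), with r = 0.91 within control rats and 0.85 within learning rats, and r = 0.77 without control replicates 5 and 7. By rank correlation no pair passed.

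**Figure D5:**
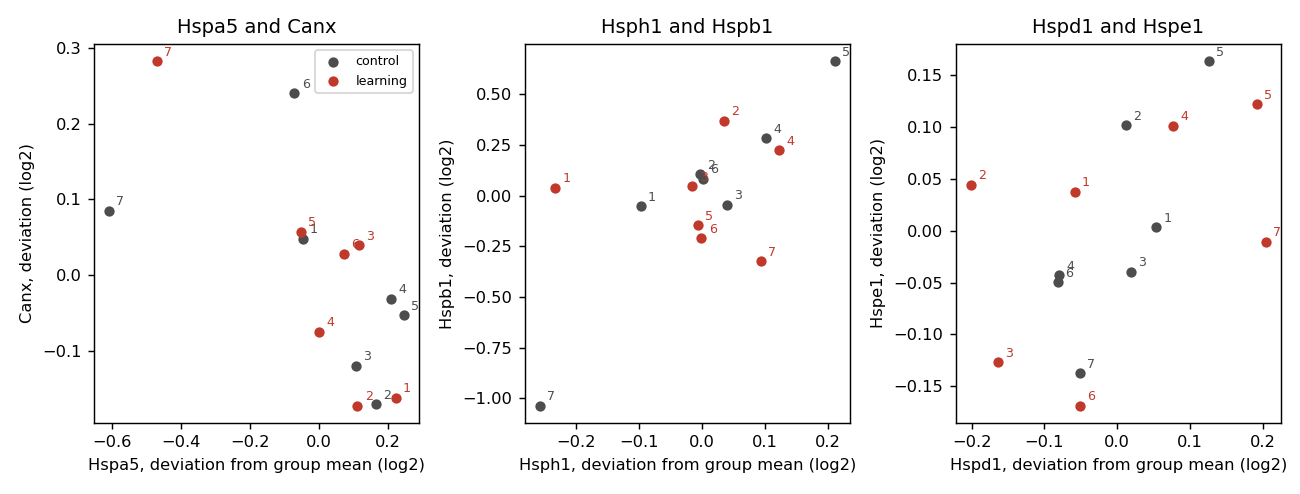
Deviation from the group mean (log2 units) of Canx against Hspa5, Hspb1 against Hsph1 and Hspe1 against Hspd1, with 1 point per rat (7 control and 7 learning rats). Canx, on its brightest probe set, runs opposite to Hspa5 (r = -0.68). Hspb1 follows Hsph1 over all rats (r = 0.68), through the control rats (r = 0.95, against 0.01 in learning rats). Hspe1 follows Hspd1 less closely (r = 0.51). None of these passed adjustment.

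Genes that work with the chaperones were taken from 3 lists. The lists are not separate from the set above: Hspbp1 is also counted among the co-chaperones, and Dnaja3, which averaged higher, among the mitochondrial import genes. Over all 6697 tested genes, 50.6% averaged higher in learning rats, and at an unadjusted p below 0.05 there were 5.99% higher and 6.66% lower. Of 29 tested heat shock factors and co-chaperones of the cytosol, 13 averaged higher and 16 lower, and at an unadjusted p below 0.05 there were 1 higher and 5 lower, with a median difference of -0.05. The genes of smallest p were Pfdn1, a subunit of prefoldin, which delivers actin and tubulin to CCT (-0.16 ± 0.05 SE), and Ahsa1, the activator of the HSP90 ATPase (-0.26 ± 0.08 SE), both with an adjusted p of 0.236 in limma. Of 35 tested genes of the unfolded protein response and ER folding, 16 averaged higher and 19 lower, with 1 higher and 2 lower at an unadjusted p below 0.05 and a median of -0.02. Syvn1 (HRD1), the ubiquitin ligase that marks misfolded ER proteins for destruction, differed by -0.34 ± 0.09 (SE; adjusted p 0.209), and Tmx1, a membrane-bound disulfide isomerase of the ER, by 0.16 ± 0.05 (SE; adjusted p 0.21). Of 12 tested genes of mitochondrial import and proteolysis, 10 averaged higher and 2 lower, with 3 higher and 0 lower at an unadjusted p below 0.05, 0 at an adjusted p below 0.05 in limma, and a median of 0.09. They were led by the inner membrane protease Yme1l1 (0.22 ± 0.08 SE; adjusted p 0.289; 0.27 on its other probe set) and the prohibitin Phb2 (0.13 ± 0.05 SE; adjusted p 0.319).

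After GCRMA, which equalises the arrays' distributions, the arrays had medians of 5.09 to 5.12 and correlations of 0.995 to 0.998 with each other. These values do not measure depth of signal or array quality. The granule cell marker Prox1 averaged 10.26 ± 0.25 in control and 10.33 ± 0.17 in learning rats (SD, n = 7 each). Calb1 averaged 10.82 ± 0.08 and 10.79 ± 0.10, and Dsp, which differed most, 6.37 ± 0.30 and 6.81 ± 0.31. The granule markers C1ql3, Tdo2 and Pdzd2 fell below the filter. The 3 tested granule markers averaged 8.99 to 9.23 per control rat and 9.13 to 9.38 per learning rat, a difference of 0.16 between the group means. Marker lists of other cell types and tissues are given as values, without a test. Of the astrocyte markers 5 of 7 averaged lower in learning rats (list means 11.48 in control and 11.43 in learning rats). Of the oligodendrocyte markers 4 of 5 tested averaged higher (9.93 and 9.95), and of the endothelial markers 3 of 4 tested (6.84 and 6.87). The CA3 markers were 3 higher and 3 lower (8.79 and 8.78). The tested blood marker, Hbb, averaged 11.12 and 11.09. In learning rats 4 of 5 tested CA1 markers averaged higher (list means 6.88 to 7.92 and 7.39 to 7.79 per rat), both tested choroid plexus markers, Ttr (7.47 ± 1.07 in control and 5.68 ± 0.14 in learning rats) and Enpp2 (7.30 ± 0.15 and 7.26 ± 0.17), averaged lower (list means 6.67 to 7.98 and 6.34 to 6.61, with Folr1, Kl, Kcnj13 and Aqp1 below the filter), 7 of 8 meningeal markers averaged lower (5.09 to 7.93 and 4.88 to 8.03), and 5 of 6 microglial markers averaged lower (7.67 to 8.15 and 7.65 to 7.90, with Cx3cr1 below the filter). In bulk tissue, fewer cells of a type and less RNA per cell cannot be told apart. With the meningeal marker mean as a covariate, 7 chaperone probe sets had an unadjusted p below 0.05 in limma in place of 9. The part of the granule cell markers and of the other marker lists in the chaperone differences was not tested.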

How the data were processed

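Total RNA of 14 dentate gyri was hybridised to 1 array each, per the labels' protocols. The deposited values are log2 levels per probe set, which the authors computed by GCRMA, as the submitters' processing notes name it. The sources used here name neither its version nor its settings. The method estimates background from probe sequence, equalises the arrays' distributions, reduces each probe set to 1 value and shrinks differences of dim probe sets. Groups came from the sample titles.

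Of 15866 probe sets other than controls, the 9387 whose mean reached 4 were tested. The difference between learning and control was estimated by limma 3.58.1 (lmFit, eBayes) in R 4.3.3 without covariate, and p was adjusted over all tested probe sets by the Benjamini-Hochberg method. A gene stands for its tested probe set of highest mean. Single probe sets were also compared by a two-sided exact permutation test over 3432 assignments of arrays to groups, whose smallest p is 0.000583. Correlations used 100000 permutations after each group was centred on its mean.

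Named in full were the 3 genes of smallest p per role, a set of well-known chaperones where measured, every probe set with an unadjusted p below 0.05, and the 2 genes of smallest p per pathway list; the rest are given as differences or ranges. The members, lists and rule were chosen with earlier results of these data known. All 63 gene IDs matched the RefSeq table of GRCr8. The replicate numbers were checked as pairs: deviations of same-numbered rats correlated between -0.28 and 0.26. Of 14 arrays, 6 correlated best with their own number among the 7 arrays of the other group. With 7 candidates for each array, chance alone would give about 1 in 7, so the share found is above it. A link between same-numbered rats is therefore not excluded. The numbers are not stated to pair rats, so they were used as a block only in an alternative. In simulated data, with probe sets independent of each other, 98.9% of changes of 1 log2 unit were recovered, and 4.70% of calls at 0.5 were false. The number of arrays limits the precision. Alternatives were other filters, normalizations, priors and weights, a floor, the replicate number as a block, a meningeal covariate, another reading of the symbol rule, and each array left out; leaving out both replicates 7 was added after the data were seen.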

Additional observations from a re-analysis of the deposited data

Results flagged for a closer look

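In 16 of 116 groups of 7 arrays, over the 58 named probe sets, 1 array lay far from the rest by Dixon's test. For normally distributed values chance alone flags about 1 in 20 groups. The share over all tested probe sets was not computed, so no excess is claimed for the named ones. Control replicate 7 was the lowest for Hspa5 (10.9, next 11.5), Pdia6 (10.2, next 10.5), Cct5 (10.3, next 10.5) and Hspb1 (5.15, next 6.13). Learning replicate 7 was the lowest for Hspa5 (10.9, next 11.3). Learning replicate 1 was the lowest for Hsph1 (10.5, next 10.7) and the highest for the ER ubiquitin ligase gene Syvn1 (7.77, next 7.57). Control replicate 6 was the highest on both Cct6a probe sets (10.1 and 5.86). Control replicate 1 was the highest for Dnaja4 (9.45) and Hspa2 (5.47), and control replicate 4 for the dimmer Dnajb12 probe set (4.69). The dimmer Hspb8 probe set was highest in control replicate 5 (4.38) and in learning replicate 2 (4.50). Learning replicate 2 was the lowest for Dnaja1 (10.2), and learning replicate 3 the highest for Dnajb5 (7.92).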

How the results depend on the processing

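No chaperone probe set reached an adjusted p below 0.05 in any of 25 alternatives, and the count at an unadjusted p below 0.05 ran from 6 (without control replicate 1 or learning replicate 6) to 10 (9 in the analysis reported). The count over all probe sets at an adjusted p below 0.05 ran from 0 to 1 when 1 array was left out; it was 1 without control replicate 6, learning replicate 1 or learning replicate 4. With 1 array left out, the median difference of the CCT subunits ran from -0.027 to 0.088, of the mitochondrial genes from 0.011 to 0.097, of the ER genes from -0.051 to -0.0093, of the cytosol from 0.0086 to 0.072, of the unfolded protein response list from -0.029 to 0.0029, of the co-chaperones from -0.055 to -0.0052 and of the mitochondrial import list from 0.049 to 0.12. Without a filter the median of the cytosolic HSP70 genes and HSP110 was 0.0081 in place of 0.11, and that of the ER lectin list, which then takes in Calr3, a gene outside the set, -0.013 in place of 0.15. Of 58 named probe sets, 41 kept their direction throughout. The others had small differences, and the cause of their changes was not tested. With 1 array left out these ran from -0.019 to 0.039 (Dnajb12), -0.058 to 0.027 (Calr), -0.0036 to 0.10 and -0.020 to 0.062 (the other Canx probe sets), -0.0023 to 0.048 (the dimmer Pdia3), -0.041 to 0.019 (Cct3), -0.040 to 0.088 and -0.13 to 0.18 (Cct6a, brighter and dimmer), -0.055 to 0.0027 (Cct7), -0.044 to 0.031 (Dnaja1), -0.043 to 0.086 (the dimmer Dnaja4), -0.046 to 0.098 and -0.082 to 0.038 (Dnajb1, brighter and dimmer), -0.061 to 0.069 (Hspb6), -0.051 to 0.033 (the dimmer Hspb8) and -0.038 to 0.023 (Hspa9). Quantile normalization gave 0.0055 (Dnajb12), -0.0036 (Cct6a) and 0.0034 (Hspb6), and median centring 0.0052 (Dnajb12) and 0.0037 (Hspb6). Array weights gave 0.0018 (Dnajb12), 0.078 (the dimmer Cct6a), -0.014 and 0.020 (Dnajb1) and 0.0078 (Hspa9). The meningeal covariate gave 0.0078 (Dnajb12) and 0.0068 (Calr). Without both replicates 7, chosen after seeing the data, the values were -0.0022 (Hsp90b1), -0.024 (a Canx probe set), 0.0078 (Cct3) and -0.027 (the dimmer Dnaja4). With the replicate number as a block, 8 chaperone probe sets had an unadjusted p below 0.05 and 0 an adjusted one; 6 of 14 arrays correlated best with their own number. The mean level lay near the filter of 4 for Hspb8 (4.27 and 4.19), the dimmer Dnajb12 (4.49) and the dimmer Cct6a (4.75), where GCRMA compresses differences.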
